A study of Danio rerio with 6 samples.

Results

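The miR-23 and miR-24 families are the neighbours of miR-27 in vertebrate genomes, and in the ovarian follicular cells of zebrafish they were listed as 5 miRNAs among 289. The members were all zebrafish (dre) miRNAs of any arm or letter whose number is exactly 23 or 24, which gave dre-miR-23a-3p, dre-miR-23b, dre-miR-24, dre-miR-24b-3p and dre-miR-24b-5p. The samples were follicular cell layers stripped from ovarian follicles at stage IIIa (early vitellogenic, not yet able to mature) and stage IIIb (mid to late vitellogenic, able to mature), with 3 pools per stage and 6 samples in all. No treatment of the fish is named, their strain and age are not given in the sources used here, and each pool joined follicles of several fish, so a sample averages over animals and over all cell types of the layer. Small RNA was sequenced, and the values are normalized counts, that is, reads of a miRNA divided by a library size parameter of the sample.

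A miRNA is cut from a hairpin precursor, which can yield a mature strand from its 5′ arm (5p) and its 3′ arm (3p), and it pairs with messenger RNAs mainly through its seed, bases 2 to 8. Genes of miR-23, miR-27 and miR-24 lie beside each other in vertebrates and can be cut from 1 shared primary transcript. In mammals the clusters are best known from blood vessel endothelium, muscle, immune cells and lipid metabolism. Neighbours made from 1 transcript need not reach equal levels, because each hairpin is cut and each mature strand is kept or degraded on its own.

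The mature sequences show what the 5 members have in common and where they part. They are given 5′ to 3′ as deposited, with T for U and the seed in capitals. Beside them stand the miR-27 strands of their own clusters that they followed most closely in the deposited counts. The only other listed miRNA with the seed of miR-24b-5p is also shown.
dre-miR-23a-3p: aTCACATTgccagggatttcca
dre-miR-23b: aTCACATTgccagggattacca
dre-miR-24: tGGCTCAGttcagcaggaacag
dre-miR-24b-3p: tGGCTCAGttcagcaggaaccg
dre-miR-24b-5p: gTGCCTACtgagctgataacagt
ocu-miR-24-5p: gTGCCTACtgagctgatatcagt
dre-miR-27b-3p: tTCACAGTggctaagttctgca
dre-miR-27c-3p: tTCACAGTggttaagttctgc
dre-miR-27a-5p: aGGACTTAgctcactctgtgaaca
The miR-23 strands shared a seed that no other of the 289 miRNAs had, and they differed by 1 base, T19A from miR-23a-3p to miR-23b, counted from 1 at the 5′ end. The seed of miR-24 and miR-24b-3p was likewise found in these 2 alone, with A21C between them. miR-24b-5p, from the other arm of the miR-24b hairpin, carried a different seed. It differed by A19T from ocu-miR-24-5p, which is named after a rabbit miRNA and is not counted among the members. All these differences lie outside the seed, close to the 3′ end.

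In the GRCz12tu assembly of RefSeq, 15 miRNA genes numbered 23, 24 or 27 form 5 clusters, each with 1 gene of each number within 10 kb of the next. That build differs from the GRCz11 build in the labels, so it was used for gene names and neighbours only. On chromosome 2 mir23a-3, mir27a and mir24b follow each other, inside the span of a long non-coding RNA gene. Chromosome 3 holds mir23a-2, mir27c and mir24-2. On chromosome 8 mir24-3, mir27b and mir23b-2 lie within the span of the protein-coding gene aopep, an aminopeptidase gene. The cluster on chromosome 10, with mir-23b, mir27d and mir24-1, lies within the span of apba1b, and chromosome 22 holds mir23a-1, mir-27e and mir-24-4. By its name miR-23a-3p can therefore come from 3 genes, miR-23b from 2 and miR-24 from 4, whereas both strands of miR-24b come from 1. By name, only the miR-24b strands can be assigned to a single cluster. How reads were shared between miR-24b-3p and miR-24 was not tested. Exons, introns and strands were not examined because the gene table gives neither.

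The 5 members held the same order of normalized counts in 6 of 6 samples. miR-23a-3p had a mean of 2005 ± 712 normalized counts (SD, n = 6), miR-23b 632 ± 281, miR-24 426 ± 205, miR-24b-3p 213 ± 124 and miR-24b-5p 35.5 ± 22.7. By mean count they ranked 79, 115, 130, 151 and 273 among the 289 miRNAs, whose means had a median of 295. The lowest count of each of the first 4 lay below the highest count of the next in order, so neighbours overlapped across samples, but within a sample miR-23a-3p was 2.52 to 3.87 times miR-23b, miR-23b 1.27 to 1.79 times miR-24, miR-24 1.29 to 5.36 times miR-24b-3p, and miR-24b-3p 3.80 to 8.19 times miR-24b-5p. The members are 22 or 23 nt long, so length hardly enters these ratios, but strands differ in how well they are captured in a small RNA library.

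Counts of the miR-27 neighbours were far higher. The 8 miR-27 miRNAs together had 136280 ± 61904 normalized counts (SD, n = 6) and took 5.78% ± 1.55 of all counts. The miR-23 strands took 0.113% ± 0.0207 and the miR-24 strands 0.0281% ± 0.00891. By mean count this put miR-23 51.7-fold and miR-24 202-fold below miR-27. The gap was largely that of miR-27c-3p (86058 ± 34050) and miR-27b-3p (44587 ± 25900), since miR-27a-3p, at 3026 ± 1619, was of the order of miR-23a-3p, and miR-27e (476 ± 229) and miR-27d (174 ± 117) were of the order of miR-24. For scale, the highest miRNA of the series, miR-202-5p, had a mean of 410406.

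The low members rested on few reads in some samples. Low values of a sample were mostly whole multiples of 1 step, taken as the value of 1 read (between 82.8% and 85.9% of values under 400, tolerance 0.01 reads). On this basis the 289 miRNAs held from 1129114 reads in stage IIIa replicate 1 to 9045233 in stage IIIb replicate 3. miR-24b-5p rested on whole reads in 6 of 6 samples, 6 reads in stage IIIa replicate 1 and 201 in stage IIIb replicate 3. In both stages some of its samples were under 100 reads, and all 6 were under 100 normalized counts. The methods state a floor of that size for retained miRNAs, so how that floor was applied is not known. Its 9.46 normalized counts in stage IIIa replicate 1 had an exact Poisson 95% interval of 3.47 to 20.6, which covers counting error only. miR-24 and miR-24b-3p did not come out as whole reads in any sample. The reads of miR-24b-3p became whole in all 6 samples once multiplied by 5, as in 22.8 reads in stage IIIa replicate 1 and 538.8 in replicate 2. Reads were aligned with 1 mismatch allowed, the strands differ by 1 base, and 5 genes are numbered 24, so how reads were shared between miR-24 and miR-24b-3p bears on both values and was not tested. miR-23a-3p had no whole value and miR-23b 1, so the split between them is uncertain in the same way.

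All 5 members had a higher mean in stage IIIb than in stage IIIa, by 1.59 to 1.93 times, but none passed the test. The comparison asked whether they change as follicles become able to mature. It used limma on log2(normalized count + 1), fitted over all 289 miRNAs and adjusted by Benjamini-Hochberg over all of them. On this scale the change of the lowest miRNAs is slightly understated.

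In stage IIIa, miR-23a-3p had 1071, 1996 and 1587 normalized counts (replicates 1, 2 and 3, here and in what follows), and 1698, 2854 and 2824 were found for stage IIIb. Stage IIIb replicate 1 lay below stage IIIa replicate 2, so the stages overlapped. Stage means were 1551 ± 463 and 2459 ± 659 (SD, n = 3). The log2 fold change was 0.67 ± 0.37 (SE), with an adjusted p of 0.429 in limma, and 0.43 without stage IIIa replicate 1.

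miR-23b was the only member whose stages did not overlap. Its normalized counts were 311, 516 and 507 at stage IIIa but 565, 775 and 1121 at stage IIIb. Stage means were 445 ± 116 and 820 ± 281 (SD, n = 3). The log2 fold change was 0.86 ± 0.39 (SE) with a 95% interval from 0.02 to 1.71, an unadjusted p of 0.0461 and an adjusted p of 0.314 in limma. The unadjusted p was above 0.05 without the variance trend (0.069) and in 5 of the 6 fits with a sample left out, where it lay between 0.0617 and 0.164 (the exception was stage IIIb replicate 1). An ordinary linear model on untransformed counts gave 0.099. Under the other alternatives the limma p lay from 0.0128 (median-of-ratios scaling) to 0.0482 (robust empirical Bayes). The lowest adjusted p under any alternative was 0.106. Over all 289 miRNAs, 11.8% were higher in stage IIIb without overlap, so 1 of 5 members was close to the background. When every sample was scaled to the same total (equal totals), miR-23b again had no overlap, and 10.7% of all miRNAs did so in that direction. No member was lower in stage IIIb without overlap, where 7.96% of all miRNAs were as deposited and 18.3% on equal totals.

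miR-24 had 193, 381 and 323 normalized counts in stage IIIa and 315, 609 and 738 in stage IIIb. Stage IIIb replicates 2 and 3 lay above all stage IIIa samples, and replicate 1 lay among them. Stage means were 299 ± 96.5 and 554 ± 217 (SD, n = 3). The log2 fold change was 0.86 ± 0.43 (SE), with an adjusted p of 0.360 in limma, and 0.57 without stage IIIa replicate 1.

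miR-24b-3p had 35.9, 295 and 145 normalized counts in stage IIIa and 142, 295 and 364 in stage IIIb. The stages overlapped widely, and stage IIIa replicate 1 stood far below the rest. The log2 fold change was 1.09 ± 0.68 (SE), with an adjusted p of 0.504 in limma. It was 0.26 without that sample and 1.76 without stage IIIa replicate 2, the highest of that stage.

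miR-24b-5p followed the same pattern at a lower level, with 9.46, 45.5 and 17.7 normalized counts in stage IIIa and 23.3, 46.5 and 70.4 in stage IIIb. The log2 fold change was 1.06 ± 0.78 (SE), with an adjusted p of 0.554 in limma, and it was 0.56 without stage IIIa replicate 1 and 1.64 without stage IIIa replicate 2. ocu-miR-24-5p, which shares its seed, had 59.9, 69.1 and 68.3 in stage IIIa and 53.0, 96.3 and 169.8 in stage IIIb, so only 2 of 3 stage IIIb samples were above stage IIIa.

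**Figure D1:**
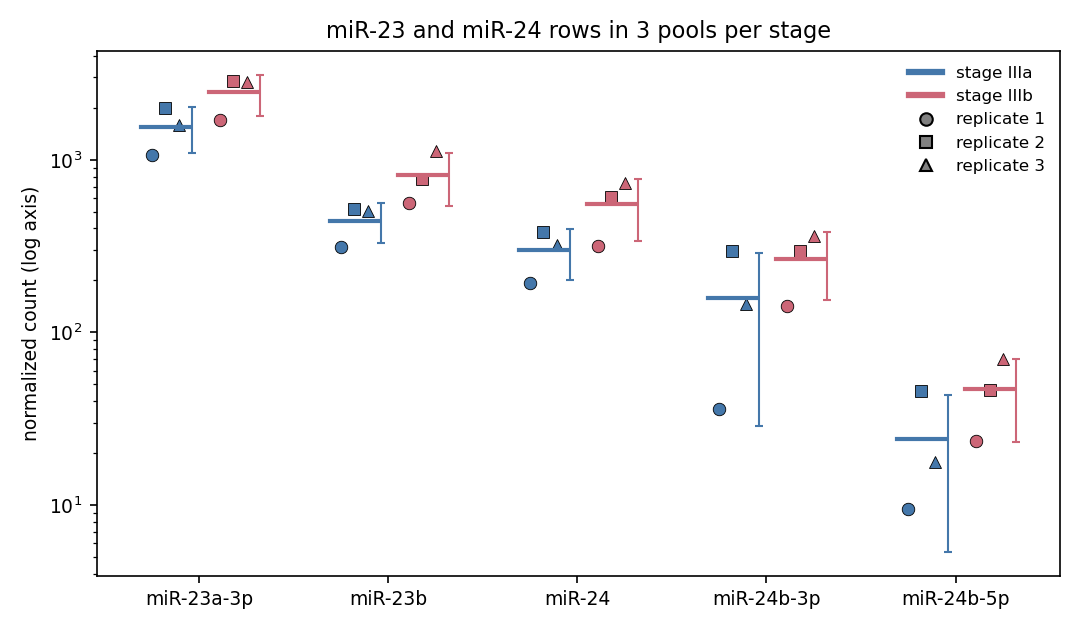
Normalized counts (log axis) of the 5 miR-23 and miR-24 miRNAs in each of 3 pools of stage IIIa (blue) and stage IIIb (red), with marker shape for the replicate, a bar for the mean and a whisker for the SD. miR-23b alone has no overlap between stages, and stage IIIa replicate 1 is the lowest sample for all 5.

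At an adjusted p under 0.05, 0 of 5 members were called in limma in either direction, where 2.42% of the 289 miRNAs were called higher and 2.08% lower in stage IIIb (7 and 6 miRNAs, or 5 and 8 on equal totals). At an unadjusted p of 0.05 or less, limma called 1 of 5 (miR-23b) higher, where 9.69% of all miRNAs were, and 0 of 5 lower, where 5.19% were. An ordinary linear model on untransformed counts called 0 of 5 at an unadjusted p of 0.05 or less, where 5.54% of all miRNAs were called higher and 5.54% lower, and 0 of all 289 at an adjusted p under 0.05. The median log2 fold change was 0.86 over the 5 members and 0.15 over all 289 miRNAs. On equal totals these were 0.55 and -0.16. A positive log2 fold change was found for 5 of 5 members under both scalings, against 57.8% of all miRNAs as deposited and 40.1% on equal totals. The members share samples and cluster genes, so they do not count as 5 separate observations.

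Of the 8 miR-27 miRNAs, also 0 passed an adjusted p of 0.05 in limma. An unadjusted limma p of 0.05 or less was found for 5 of 8, all higher in stage IIIb, and for 9.69% of all 289 in that direction. miR-27b-3p had the smallest p, with a log2 fold change of 1.37 ± 0.42 (SE) and an adjusted p of 0.106 in limma, and mir-27c-p5, the 5′ strand of the miR-27c hairpin, had the smallest fold change, 0.55. The median over the 8 was 1.06. All 8 neighbours thus lay on the same side of 0 as the members, where 57.8% of all 289 miRNAs also lay.

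**Figure D2:**
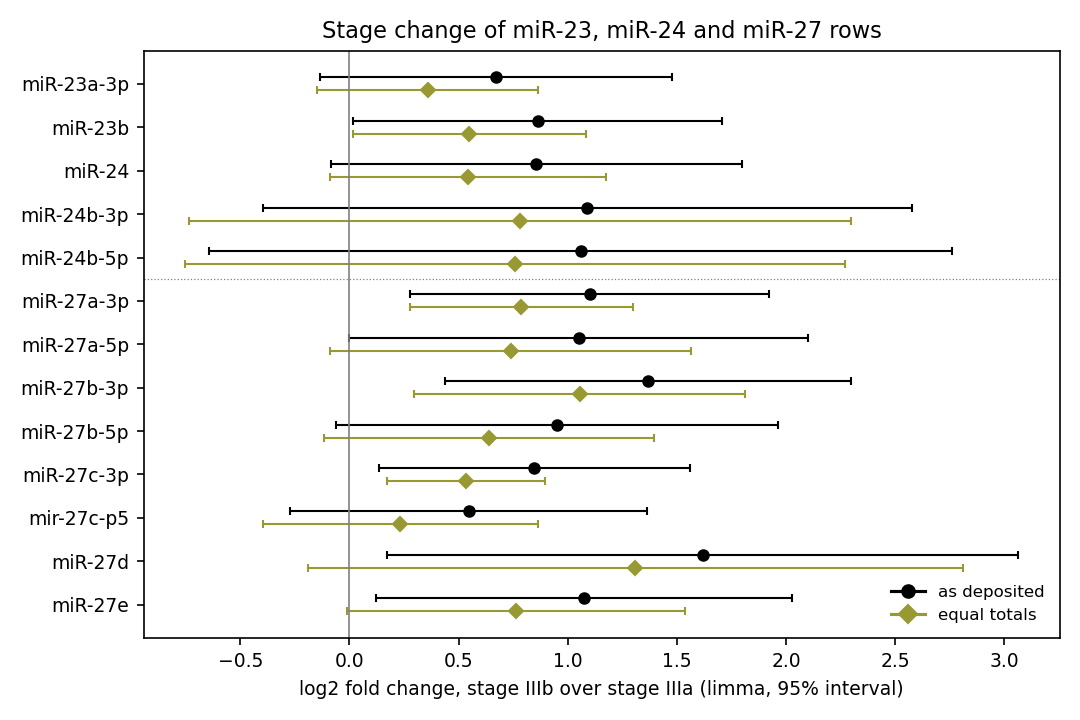
Log2 fold change from stage IIIa to stage IIIb with its limma 95% interval for the 5 members (above the dotted line) and the 8 miR-27 miRNAs, as deposited (black circles) and after rescaling to equal totals (olive diamonds). All 26 estimates lie above 0, and of the members the interval leaves 0 out for miR-23b alone.

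A few library facts touch these values. Stage IIIa replicate 1 had the fewest reads and the lowest total of normalized counts (1779302, with up to 3166619 in the others), and was the lowest sample for 5 of 5 members and 7 of 8 miR-27 miRNAs, where this held for 40.1% of all 289. It also had the lowest share of the total for 5 of 5 members, against 29.4% of all miRNAs. Among marker miRNAs, the gonadal miR-202 strands took 16.0% to 23.4% of the counts. The 2 listed of 4 endothelial miR-126 strands took 1.40% to 2.19% in stage IIIa and 1.57% to 1.84% in stage IIIb, with no separation, and none was at 0. All 6 red blood cell miRNAs (miR-451, miR-144 and miR-2188 strands) were lower in stage IIIb without overlap in the deposited counts. This held for 7.96% of all 289 miRNAs. Together the 6 took 1.08% to 1.47% of the counts in stage IIIa and 0.0904% to 0.283% in stage IIIb. The muscle, liver and brain lists had 1 listed marker each, at no more than 0.0293% of the counts. The part of other cell types in the members' values was not tested, and in pooled cells more cells of a type and more RNA per cell cannot be told apart.

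Whether the members followed the miR-27 miRNAs of their own clusters was read over the 6 samples, on log2(normalized count + 1). Names and gene order gave 18 pairs of a member with a miR-27 strand of the same cluster. All 18 had a positive Pearson's r, with a median of 0.92 and a range from 0.54 to 0.98. An r above 0.8 was found in 16 of 18 pairs and in 22.4% of the 1430 pairs of a member with any listed miRNA. It was also found in 17 of the 22 pairs of a member with a miR-27 strand of another cluster, or 8 of 22 on equal totals. By an exact permutation over the 720 pairings, 16 of 18 had an unadjusted two-sided p under 0.05, where 24.3% of the 1430 pairs did. None passed after Benjamini-Hochberg adjustment over the 1430, for which the lowest adjusted p among the 18 was 0.0993. The permutation cannot give r a p below 0.00139. At that p a pair alone cannot pass the adjustment over 1430, however high its r, so not passing says little about a pair. Counts of a sample rise and fall together with its total (r from 0.79 to 0.95 between the members and the log2 total), so the values were also taken on equal totals. The median r of the 18 pairs was then 0.86, with 12 above 0.8 (8.32% of the 1430 pairs) and 11 at an unadjusted permutation p under 0.05 (16.2% of the 1430 pairs). Spearman's rho, which uses ranks only, was above 0.8 in fewer pairs. As deposited it was so in 9 of the 18 (median 0.80) and in 10 of the 22 (median 0.77). On equal totals it was so in 7 of the 18 (median 0.71) and in 4 of the 22 (median 0.49). All of these points share 6 libraries, and pairs that share a member or a miR-27 strand are not independent. The permutation moved samples across the stages, so a stage difference common to both miRNAs of a pair enters its r and p.

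**Figure D3:**
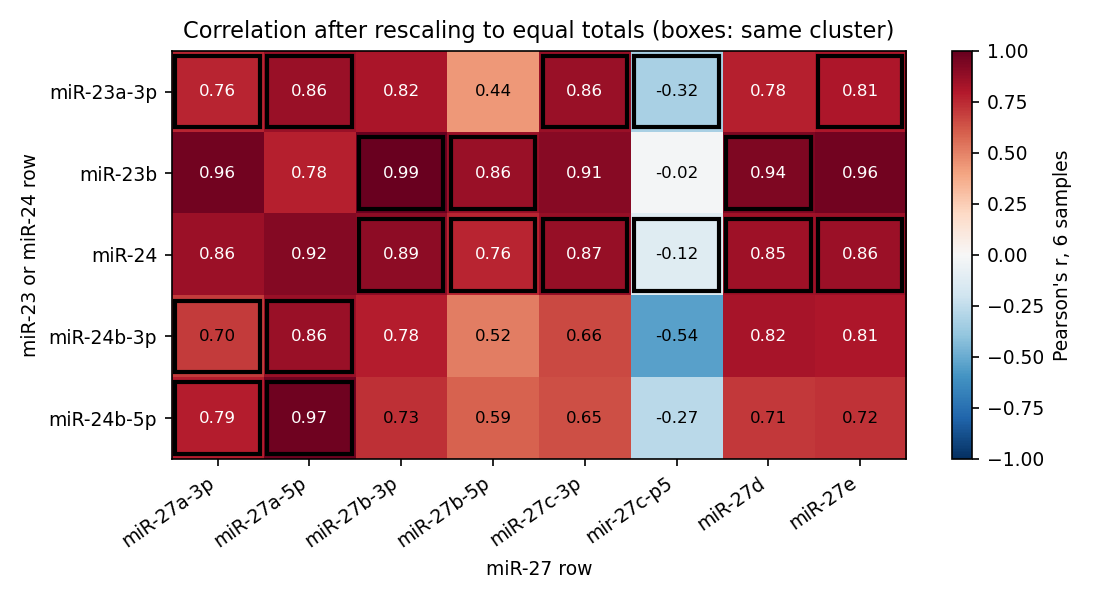
Pearson's r over 6 samples between each member (vertical axis) and each miR-27 miRNA (horizontal axis) after rescaling to equal totals, with black boxes around the 18 pairs that share a cluster. The values reach 0.99 for miR-23b with miR-27b-3p, and the column of mir-27c-p5 is at or below -0.02 throughout.

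miR-23b and miR-27b-3p, neighbours on chromosome 8, were the closest of the 18 pairs on equal totals. miR-23b took 0.0175%, 0.0235% and 0.0247% of the counts in stage IIIa and 0.0310%, 0.0290% and 0.0354% in stage IIIb. miR-27b-3p took 0.701%, 1.39% and 1.68% in stage IIIa and 2.44%, 2.17% and 2.76% in stage IIIb, so both ranked the 6 samples in the same order. On equal totals r was 0.99 and Spearman's rho 1 (exact permutation p = 0.00139 and 0.00278, n = 6, adjusted p = 0.211 and 0.361). As deposited r was 0.98 and rho 0.94 (exact permutation p = 0.00278 and 0.0167, n = 6, adjusted p = 0.0993 and 0.189). Among all 288 other miRNAs, miR-27b-3p ranked 1 by r to miR-23b on equal totals and 9 as deposited, where miR-27a-3p of another cluster ranked 6 (r = 0.98). Without the 2 samples farthest from the median of miR-27b-3p, stage IIIa replicate 1 and stage IIIb replicate 3, r was 0.93 as deposited and 0.99 on equal totals. Deviations from the stage means, which hold no difference between stages, gave 0.94 and 0.97. The next in likeness to miR-23b were miR-27e and miR-27a-3p (both r = 0.96), which share no cluster with it by name. Those have 3 and 2 mismatches to miR-27b-3p. As their recovered reads and those of miR-27b-3p were mostly not whole, the sharing of reads within miR-27 bears on this and was not tested. The other neighbours of miR-23b gave r = 0.86 (miR-27b-5p) and 0.94 (miR-27d) on equal totals.

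Both strands of miR-24b come from the chromosome 2 cluster, as miR-27a does. miR-24b-5p took 0.000531%, 0.00207% and 0.000863% of the counts in stage IIIa and 0.00128%, 0.00174% and 0.00222% in stage IIIb. miR-27a-5p, the strand of its neighbour from the same arm, took 0.00992%, 0.0222% and 0.0117% in stage IIIa and 0.0181%, 0.0245% and 0.0271% in stage IIIb. Stage IIIa replicate 2 was high for both, close to the stage IIIb samples. The pair had r = 0.98 and rho = 1 as deposited (exact permutation p = 0.00139 and 0.00278, n = 6, adjusted p = 0.0993 and 0.147), and r = 0.97 and rho = 0.94 on equal totals (exact permutation p = 0.00417 and 0.0167, n = 6, adjusted p = 0.211 and 0.378). Without 2 samples r was 0.96 as deposited and 0.85 on equal totals, and the deviations from the stage means gave 0.99 and 0.98. miR-27a-5p came out in whole reads in all 6 samples, as did miR-24b-5p. It was second in likeness to miR-24b-5p, just behind the predicted miRNA PC-3p-11987_476 (both r = 0.97) and before miR-132-5p. PC-3p-11987_476 had a mean of only 40.7 normalized counts. With miR-27a-3p, the more abundant strand, miR-24b-5p had r = 0.79 and miR-24b-3p r = 0.70 on equal totals. miR-24b-3p had r = 0.86 with miR-27a-5p and 0.94 with miR-24b-5p. Without 2 samples miR-24b-5p with miR-27a-3p had r = 0.63 as deposited and 0.33 on equal totals. For miR-24b-3p these were 0.49 and 0.05 with miR-27a-3p, and 0.91 and 0.68 with miR-27a-5p. The nearest to miR-24b-3p were miR-7145, aca-miR-101-1-5p and miR-24b-5p, with r = 0.94 each and means of 43.8, 135 and 35.5 normalized counts.

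miR-24 can come from every cluster but that on chromosome 2. Its r on equal totals was 0.89 with miR-27b-3p, 0.87 with miR-27c-3p, 0.86 with miR-27e, 0.85 with miR-27d and 0.76 with miR-27b-5p, so no cluster stood out. With miR-27a-5p and miR-27a-3p, which share no cluster with it, r was 0.92 and 0.86. As deposited r with miR-27c-3p was 0.97 (rho 0.77, exact permutation p = 0.0111 and 0.103, n = 6, adjusted p = 0.113 and 0.369). Without 2 samples the 5 values on equal totals were between -0.04 (miR-27d) and 0.57 (miR-27c-3p). miR-27a-3p gave 0.51 and miR-27a-5p 0.86. Stage IIIa replicate 1 was left out each time. The second sample was stage IIIb replicate 2 for miR-27c-3p, stage IIIa replicate 3 for miR-27a-5p and stage IIIb replicate 3 otherwise. As deposited, the 5 values without 2 samples were between 0.37 (miR-27d) and 0.87 (miR-27c-3p). With 4 samples left, these values do not show on which samples a correlation rests. PC-3p-17251_338, ccr-mir-22a-p5 and miR-200c-3p were the nearest to miR-24, with r = 0.95, 0.95 and 0.94. Their means were 31.5, 163 and 412 normalized counts.

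miR-23a-3p, with genes on chromosomes 2, 3 and 22, had r = 0.86 with miR-27c-3p, 0.86 with miR-27a-5p, 0.81 with miR-27e and 0.76 with miR-27a-3p on equal totals. As deposited these were 0.96, 0.97, 0.91 and 0.92. The 2 samples farthest from the median differed between these miR-27 strands. Without them r was 0.45, 0.07, 0.28 and 0.74 on equal totals, and 0.87, 0.94, 0.69 and 0.82 as deposited, in the same order. With 4 samples left and the extremes removed, a lower r does not show that a correlation rests on the samples left out. PC-3p-17251_338 (r = 0.96), ccr-mir-22a-p5 (0.95) and miR-122 (0.95) were the miRNAs nearest to miR-23a-3p on equal totals. Their means were low, at 31.5, 163 and 202 normalized counts, and miR-122 ranged from 0 in a stage IIIa sample to 784 in stage IIIb.

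**Figure D4:**
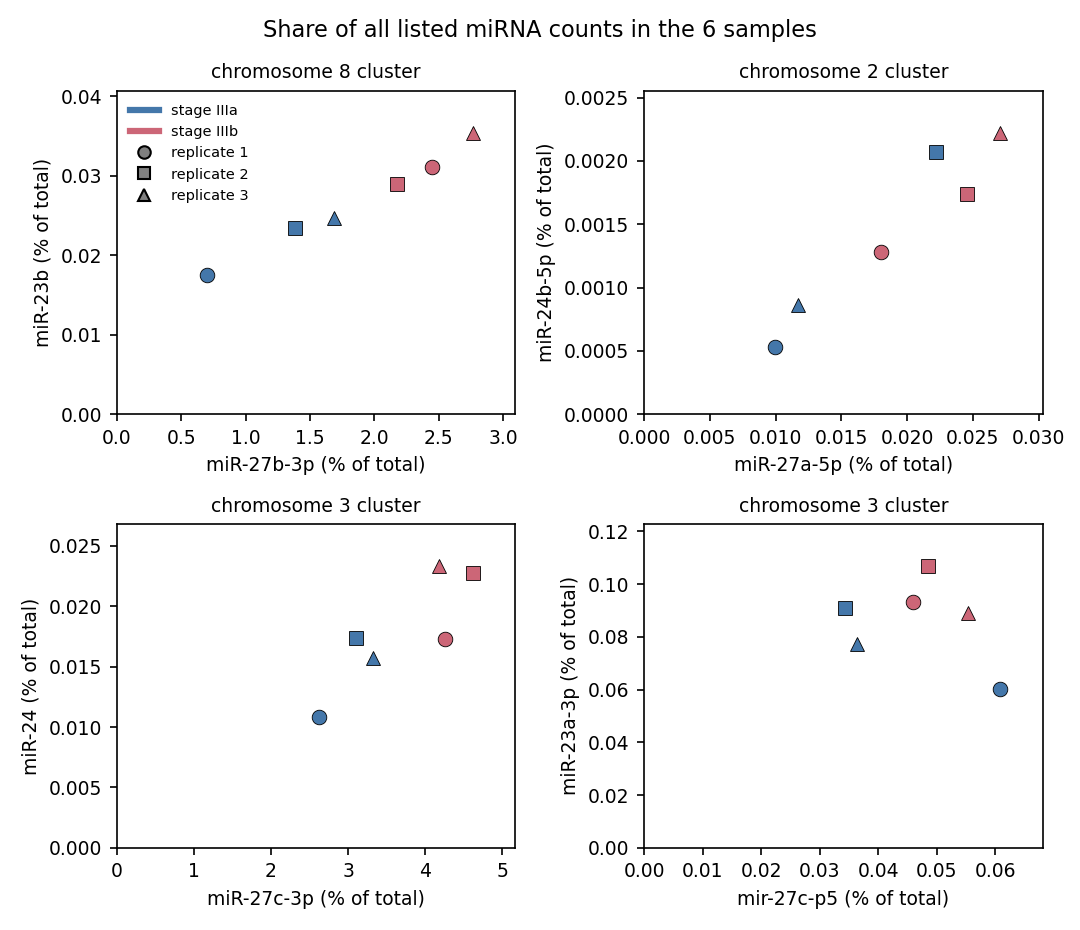
Share of all listed miRNA counts (%) of a member (vertical axis) against a miR-27 miRNA of its cluster (horizontal axis) in the 6 samples, blue for stage IIIa and red for stage IIIb, with marker shape for the replicate. miR-23b follows miR-27b-3p (r = 0.99 on equal totals) and miR-24b-5p follows miR-27a-5p (0.97), miR-24 follows miR-27c-3p less closely (0.87), and miR-23a-3p does not follow mir-27c-p5 (-0.32).

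mir-27c-p5 was the exception. It had 1083, 754 and 746 normalized counts in stage IIIa and 836, 1296 and 1753 in stage IIIb, and took its largest share of the counts, 0.0608%, in stage IIIa replicate 1, where all members took their smallest. Its r was 0.54 with miR-23a-3p and 0.63 with miR-24 as deposited, and -0.32 and -0.12 on equal totals. Without stage IIIa replicate 1 these were 0.90 and 0.96 as deposited and 0.47 and 0.83 on equal totals. Without the 2 samples farthest from the median of mir-27c-p5 they were negative. They were -0.91 and -0.96 as deposited (stage IIIb replicates 2 and 3 left out). On equal totals they were -0.84 and -0.55 (stage IIIa replicates 2 and 3 left out). Deviations from the stage means gave 0.21 and 0.37 as deposited and -0.89 and -0.67 on equal totals. The 3′ strand of the same hairpin, miR-27c-3p, took its smallest share, 2.62%, in stage IIIa replicate 1.

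Pairs that share a cluster and pairs that do not were set side by side. The 18 pairs had a median r of 0.92 as deposited and 0.86 on equal totals, and the 22 pairs of a member with a miR-27 strand of another cluster had 0.86 and 0.75. Without 2 samples the medians were 0.76 and 0.37 for the 18 pairs, and 0.32 and -0.21 for the 22. Deviations from the stage means gave medians of 0.86 and 0.74 for the 18 pairs, and 0.84 and 0.60 for the 22. On equal totals these deviations gave r from -0.89 to 0.98 over the 18 pairs, with 6 above 0.8. Of the 22 pairs, 4 were above 0.8 there. The differences were not tested, because the pairs share members and samples. Leaving out 2 samples on equal totals left 2 of the 18 pairs above 0.8, miR-23b with miR-27b-3p and miR-24b-5p with miR-27a-5p. Of the 22 other pairs 4 stayed above 0.8. They were miR-23b with miR-27e (0.95), miR-27c-3p (0.94) and miR-27a-3p (0.90), and miR-24 with miR-27a-5p (0.86). The other neighbours of miR-23b, miR-27d and miR-27b-5p, gave 0.77 and 0.73. Without stage IIIa replicate 1 the median r of the 18 was 0.91 as deposited but 0.69 on equal totals.

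Ratios within a sample do not depend on its scaling, apart from the pseudocount of 1 added to each count. They were compared between the stages for the same 18 pairs. The log2 ratio of the member to the miR-27 strand was lower in stage IIIb in 13 of 18, by a median of -0.14 over the 18 (range -0.76 to 0.31). These ratios share members and miR-27 strands and are not independent. The share of lower ratios over the 1430 was not computed, so the 13 have no background. In 2 of the 18 pairs every stage IIIb sample lay below every stage IIIa sample, as did 2.73% of the 1430 ratios of a member to any listed miRNA. No ratio of the 18 was separated in the other direction, where 24.6% of the 1430 were. One was miR-23b to miR-27b-3p, at -5.32, -5.88 and -6.09 in stage IIIa and -6.30, -6.23 and -6.28 in stage IIIb, a difference of -0.51 (-0.28 without stage IIIa replicate 1). The other was miR-23a-3p to miR-27a-3p, at -0.34, -0.28 and -0.28 in stage IIIa and -0.76, -0.36 and -1.06 in stage IIIb, a difference of -0.43 (-0.26 without stage IIIb replicate 3). By exact permutation, two-sided, each had p = 0.10, below which 3 samples against 3 cannot go, and 0.7875 after adjustment over the 21 ratios compared. For miR-24b-5p to miR-27a-5p the difference was 0.01, with an SD of 0.35 in stage IIIa and 0.11 in stage IIIb. It was -0.25 with a pseudocount of 10, with every stage IIIb sample below stage IIIa (exact permutation p = 0.10, n = 3 per stage), and -0.17 to 0.17 with a sample left out.

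The remaining 3 of the 21 ratios were taken within the families, and none was separated between the stages. miR-23a-3p made up 76.3% ± 2.86 of the miR-23 counts (SD, n = 6, range 71.6% to 79.5%), and its log2 ratio to miR-23b differed by -0.19 between stages (exact permutation p = 0.40, n = 3 per stage). miR-24 made up 68.8% ± 8.95 of miR-24 and miR-24b-3p, from 56.3% in stage IIIa replicate 2 to 84.3% in stage IIIa replicate 1, both of the same stage (difference of the log2 ratio -0.23, exact permutation p = 0.70, n = 3 per stage). That difference turned to 0.31 without stage IIIa replicate 1 and was -0.70 without stage IIIa replicate 2. The 5′ strand made up 14.8% ± 3.40 of the miR-24b counts, and its log2 ratio to the 3′ strand differed by -0.03 (exact permutation p = 1, n = 3 per stage), or 0.30 without stage IIIa replicate 1, -0.27 without stage IIIa replicate 3, -0.13 without stage IIIa replicate 2, -0.11 without stage IIIb replicate 3, -0.01 without stage IIIb replicate 1 and 0.03 without stage IIIb replicate 2. In the 3 stage IIIb samples the share of miR-24 stayed between 67.0% and 68.9%.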

How the data were processed

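Small RNA of follicular cells was sequenced by the authors from 3 pools of stage IIIa and 3 of stage IIIb. The authors trimmed and filtered the reads with ACGT101-miR, aligned them to miRBase precursors with 1 mismatch allowed, and divided the counts by a library size parameter. What the authors deposited is a scaled signal per miRNA (normalized counts), not raw counts. The labels name GRCz11.

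Stages were taken from the sample titles. limma 3.58.1 in R 4.3.3 compared log2(normalized count + 1) over all 289 miRNAs, with a mean-variance trend and no filter, and the procedure was tested on simulated data. Correlations and ratios were computed in Python 3.11.15 with exact permutation over the samples. Clusters were genes within 10 kb in the RefSeq gene table, matched by symbol. Alternatives were pseudocounts of 0.1 and 10, a filter at a mean of 100, 3 scalings, limma without trend or with robust empirical Bayes, a replicate block, a linear model on untransformed counts, and each sample left out. Scaling to equal totals combined with leaving out stage IIIa replicate 1 was added after the values were seen, as was leaving out samples from the ratios within families. Named miRNAs are all members, all miR-27 miRNAs, other species' miRNAs of these numbers, the 3 nearest to each member by r on equal totals, and marker lists. Members and lists were chosen with earlier results of these data known. The labels do not say that samples of a stage came from separate fish, so p-values measure the spread between these samples.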

Additional observations from a re-analysis of the deposited data

How the results depend on the processing

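The log2 fold changes of the members kept their sign under every alternative that gave a value (16 for 4 members, and 15 for miR-24b-5p, which the filter at a mean of 100 removed), and none reached an adjusted p under 0.05 in limma. The filter, limma without trend, robust empirical Bayes and the replicate block cannot change a fold change, only its error and p, so they do not test the sign. Each sample left out in turn gave 0.43 to 0.92 for miR-23a-3p, 0.61 to 1.10 for miR-23b, 0.57 to 1.22 for miR-24, 0.26 to 1.76 for miR-24b-3p and 0.56 to 1.64 for miR-24b-5p. On equal totals they were 0.36, 0.55, 0.54, 0.78 and 0.76. Over all 289 miRNAs the unadjusted calls went from 28 higher and 15 lower to 20 and 42 on equal totals. Median-of-ratios scaling gave 2 of 5 members, miR-23b and miR-24, an unadjusted limma p of 0.05 or less, both higher in stage IIIb. Of all miRNAs 12.5% were called higher there. The 7 miRNAs called higher over all 289 became 3 without the trend, 4 with the replicate block, 1 to 6 with a sample left out (2 without stage IIIa replicate 1, and 1 without stage IIIa replicate 2 or stage IIIb replicate 3) and 0 in the linear model on untransformed counts. The 6 called lower became 7 without the trend, 5 with the replicate block, 6 to 8 with a sample left out and 0 in that linear model. The labels do not say whether same-numbered samples are paired, and the values do not settle it. Correlations of same-numbered deviations were 0.103, 0.280 and -0.0336, and 3 of 6 samples correlated best with their own number. With the replicate block 3 of 5 members had an unadjusted limma p of 0.05 or less, all higher in stage IIIb. This held for 14.5% of all miRNAs, and 0 members passed at an adjusted p under 0.05.

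The median r of the 18 pairs lay between 0.909 and 0.938 with a sample left out, and was 0.686 on equal totals without stage IIIa replicate 1. The correlations with mir-27c-p5 turned from positive to -0.32 (miR-23a-3p) and -0.12 (miR-24) on equal totals. Of the alternative values of the log2 ratios, 24 had the other sign than the main value and 156 the same sign. The pseudocount of 10 moved the low ratios most, miR-24b-5p to miR-27a-5p from 0.01 to -0.25 and miR-24b-5p to miR-27a-3p from -0.04 to -0.32. The lowest count of miR-24b-5p, 9.46 in stage IIIa replicate 1, was below this pseudocount, and how far it sets the shift was not tested. The fewest reads of a member in a sample were 6, for miR-24b-5p in stage IIIa replicate 1. The part of depth in the spread of the low members was not tested.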
